A study of Homo sapiens with 4 samples.

Results

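The protocadherin alpha locus on chromosome 5 holds 15 genes, PCDHA1 to PCDHA13, PCDHAC1 and PCDHAC2, in a single tandem array. The region described here runs from 140.1 Mb to 140.4 Mb of chromosome 5 in the hg19 build, and its members are the 4630 CpG sites with at least 1 read there, out of 27710999 on the autosomes and X. It takes in the whole gene array and the flank before the gene start of PCDHA1 at 140165721. DNA came from HEK293T cells, a human embryonic kidney line that carries the SV40 large T antigen. CpG methylation (mCG) was read by enzymatic methyl sequencing (EM-seq), which converts unmethylated cytosines enzymatically, so that they are read as T, and leaves methylated ones as C. Wild-type cells (WT, 2 libraries) were compared with cells in which ZNF274 had been deleted by CRISPR-Cas9 (ZNF274KO, 2 libraries), and the labels give no other difference between them. ZNF274 is a KRAB zinc finger protein that binds DNA and recruits KAP1/TRIM28 and the histone methyltransferase SETDB1. The study derived knockout cells by sorting single cells after guide transfection. Whether the 2 libraries of a group came from separate clones or cultures is not given, so all p-values measure the spread between these libraries, which may be technical.

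Clustered protocadherins are cell adhesion molecules of the nervous system. Each alpha gene contributes its own large first exon, the variable exon, which encodes the extracellular, transmembrane and proximal cytoplasmic parts of the protein. The variable exon is spliced to 3 constant exons at the end of the array, which all alpha proteins share. A neuron chooses among the variable exons through their promoters. In the alpha array most of these promoters carry a conserved sequence element bound by CTCF, a protein that holds DNA loops, and methylation of promoter DNA is known to go with silence of the gene and loss of CTCF. PCDHAC1 and PCDHAC2 are called C-type genes and are regulated differently from PCDHA1 to PCDHA13.

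The promoter sequences are shown because many of them share a short word that holds a CpG, whose methylation could be read directly. Whether this word is part of the element bound by CTCF was not tested. Among all words of 8 bases on either strand in the 300 bases before each start, GATGTCGC (reverse complement GCGACATC) occurred in 10 of the 15 alpha promoters, a count that no other word exceeded and that 1 other word shared. It occurred in 0.4% of the 300-base promoters of all 19756 protein-coding genes (79 genes, the 10 alpha genes included). The word was chosen after the sequences had been compared. In the following stretches, read from the GRCh37 reference on the plus strand 5′ to 3′, capitals mark the word.

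PCDHA1, chr5:140165666-140165705: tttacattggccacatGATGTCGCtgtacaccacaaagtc
PCDHA2, chr5:140174361-140174400: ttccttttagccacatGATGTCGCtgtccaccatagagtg
PCDHA3, chr5:140180574-140180613: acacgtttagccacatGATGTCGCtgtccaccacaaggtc
PCDHA4, chr5:140186559-140186598: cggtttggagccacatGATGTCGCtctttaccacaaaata
PCDHA5, chr5:140201122-140201161: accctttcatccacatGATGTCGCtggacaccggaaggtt
PCDHA6, chr5:140207477-140207516: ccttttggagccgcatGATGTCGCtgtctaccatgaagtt
PCDHA7, chr5:140213752-140213791: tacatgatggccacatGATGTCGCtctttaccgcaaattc
PCDHA8, chr5:140220710-140220749: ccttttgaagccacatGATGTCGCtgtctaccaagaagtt
PCDHA10, chr5:140235421-140235460: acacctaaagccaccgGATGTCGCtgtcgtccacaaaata
PCDHA12, chr5:140254824-140254863: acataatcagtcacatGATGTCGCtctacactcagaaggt

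The word began 43 to 78 bases before the annotated start in 9 of these genes. In PCDHA7, whose annotated start coincides with its coding start, it began 201 bases before. PCDHA9, PCDHA11, PCDHA13, PCDHAC1 and PCDHAC2 did not hold these 8 letters in the window.

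The next pair of stretches contrasts the 2 kinds of sequence in the array, with each CG in capitals. Each is the 240 bases richest in CpGs of its exon or tile. The stretch from the coding part of the PCDHA1 variable exon holds 36 CpGs. The stretch from the intron before the last constant exon lies in the 2 kb tile with the largest rise of the locus and holds 4.

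PCDHA1 variable exon, chr5:140167151-140167390: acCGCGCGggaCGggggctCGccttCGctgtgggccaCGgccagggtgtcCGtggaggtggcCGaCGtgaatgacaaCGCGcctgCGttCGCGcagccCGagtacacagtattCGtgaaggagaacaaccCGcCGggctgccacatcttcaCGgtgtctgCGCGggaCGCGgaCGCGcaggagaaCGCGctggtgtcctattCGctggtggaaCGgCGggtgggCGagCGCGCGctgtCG
Constant-stretch intron, chr5:140379201-140379440: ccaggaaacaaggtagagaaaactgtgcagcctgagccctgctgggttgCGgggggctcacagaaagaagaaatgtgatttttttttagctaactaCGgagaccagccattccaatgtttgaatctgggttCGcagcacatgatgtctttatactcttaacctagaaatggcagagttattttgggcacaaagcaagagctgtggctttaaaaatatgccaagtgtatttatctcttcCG

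In the exon stretch the methylation level, the share of reads that were methylated, was 82.5% and 86.6% in WT and 92.7% and 90.2% in ZNF274KO (replicates 1 and 2). In the intron stretch it was 26.9% and 10% in WT and 80.4% and 41.7% in ZNF274KO, from 30 to 52 reads a library. The CpG-dense exon was thus already highly methylated in WT, and the CpG-poor intron was lower. Within the intron stretch, the CpG at base 132 had 1 methylated read of 17 and 0 of 8 in WT against 13 of 16 and 2 of 8 in ZNF274KO. The CpG at base 97 had 0 methylated reads of 12 and 0 of 6 in WT against 8 of 12 and 1 of 7 in ZNF274KO. The other two were partly methylated in WT, with 7 of 14 and 0 of 3 against 11 of 14 and 5 of 10 at base 50, and 6 of 9 and 3 of 13 against 9 of 9 and 7 of 11 at base 239.

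The 4 libraries held 241598512 to 295114493 reads over CpGs (autosomes and X), and the median depth over the CpGs of the locus was 9 or 10 reads in each. Of the 501 CpGs inside ZNF274, the reads numbered 5158 and 4274 in the WT libraries against 0 and 14 in the ZNF274KO libraries, so the labels matched the deletion. Mean depth over the locus was 0.980 and 0.997 times the autosomal mean in WT and 1.038 and 1.011 times in ZNF274KO, separate with ZNF274KO higher. Over chromosome 5 it was 0.935 and 0.954 against 0.989 and 0.984, also separate. Whether copy number differed between the genotypes was not tested. The level over the autosomes and X lay at 59.3% and 60.4% in WT and at 60.2% and 58.4% in ZNF274KO. ZNF274KO replicate 1 stood above ZNF274KO replicate 2 over most of the locus (130 of the 139 tiles tested), and the mean differences and medians over tiles below are pulled up by it.

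The first question was where along the locus mCG differed between the genotypes. Methylation was higher in ZNF274KO cells in the flank, between the variable exons and over the constant stretch, where the mean difference was largest. The groups overlapped over the variable exons and over the promoters summed. Over all CpGs of the locus the level was 47.8% and 49.7% in WT and 62.8% and 52.4% in ZNF274KO, a difference of 8.89 percentage points. In the flank the levels were 27.4% and 29.0% against 46.9% and 40.6%, a difference of 15.6 points over 529 CpGs. Across the array, from the start of PCDHA1 to the end of the PCDHAC2 exon, they were 54.6% and 56.6% against 66.6% and 57.0%, a difference of 6.24 points over 3715 CpGs. Across the constant stretch, from there to the end of the alpha genes at 140391932, they were 11.1% and 9.86% against 46.5% and 23.5%, a difference of 24.5 points over 334 CpGs. The groups did not overlap in any of these sections, although in the array replicate 2 of ZNF274KO exceeded the higher WT library by less than the WT libraries differed from each other. In the 8068 bases after the alpha genes the groups overlapped, with 23% and 20.2% in WT and 46.1% and 22.7% in ZNF274KO. With 2 libraries a group the smallest p that a 2-sided exact permutation test can reach is 0.333, which is the value for the 3 sections above and for the locus, so no single level could pass 0.05. The introns of the constant stretch minus the flank gave -15.2 and -18.6 points in WT and 2.05 and -15.7 points in ZNF274KO. Groups overlapped in this contrast (exact permutation p = 0.667). Replicate 2 of ZNF274KO alone exceeded the WT mean by 13.04 points in the constant stretch and by 12.5 points in the flank.

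**Figure D1:**
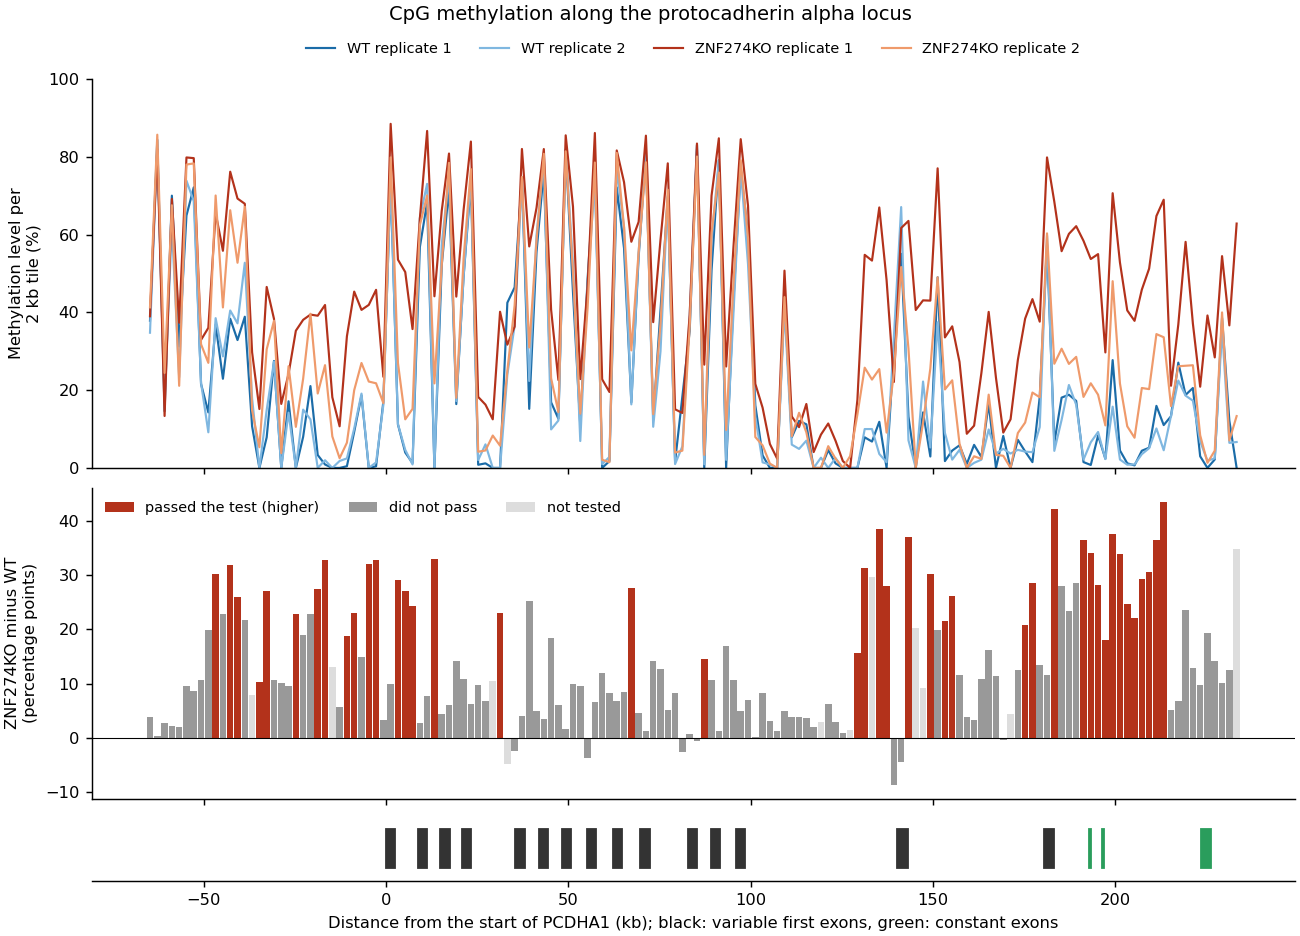
Methylation level in 2 kb tiles (top, % for each of the 4 libraries), the difference ZNF274KO minus WT of the group means (middle, percentage points, coloured by the edgeR test) and the exons (bottom), against distance from the start of PCDHA1 in kb. The variable exons stand as peaks in the 4 libraries, and the called tiles (red) stand alone or in short runs in the flank, between variable exons and around PCDHAC1, and in a run of 12 tiles over the constant stretch.

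The locus was then tested in 2 kb tiles within a fit of all tiles of the genome, and 139 of its 150 tiles had enough reads and CpGs. Of these, 42 (30.2%) were higher in ZNF274KO (edgeR quasi-likelihood test, Benjamini-Hochberg adjusted p under 0.05) and 0 were lower, with 91 higher and 1 lower at an unadjusted p under 0.05 (43384 and 42293 of all tiles). Over the genome 0.431% of 1357602 tiles were called higher and 0.0194% lower. In 99 of the 139 tiles the lower ZNF274KO library still exceeded the higher WT library, against 14.6% of all tiles, and in 1 tile the groups were separate the other way, against 20.3% of all tiles. The median difference was 10.9 points over the 139 tiles and -0.478 points over all tiles tested. The mean difference was positive in 132 of the 139 tiles. Without ZNF274KO replicate 1, 13 of the 42 tiles were called, without replicate 2 a total of 61 tiles were called, and limma on log-odds called 8 (0.228% of all tiles).

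Tiles that were low in WT accounted for most of the calls. Of 63 tiles with a WT mean below 10%, 33 were called higher (52.4%), with a median difference of 16.9 points, whereas 1.65% of all tiles of the genome in that range were called, with a median difference of 0.366 points. Of 49 tiles with a WT mean from 10% to 50%, 9 were called (18.4%, against 0.749% of all tiles in that range). Of the 27 tiles with a WT mean of 50% or more, 0 were called by this test or by limma, where 0.045% of all tiles in that range were called, so that a count of 0 is near that share. Their median difference was 5.02 points, against -1.17 points for all tiles in that range. By CpG density, 35 of 86 tiles with fewer than 20 CpGs were called, 6 of 23 with 20 to 39, and 1 of 30 with 40 or more, against 0.353%, 0.583% and 0.535% of all tiles in these classes. In 14 tiles neither WT library had a methylated read, from 57 to 353 reads in the 2 libraries together, which allows a level of up to 0.85% to 5.26% (3 counts, counting error only, since PCR copies are not independent molecules). Of those 14, 10 were tested and 6 were called, and levels among the 14 reached 44.2% in ZNF274KO replicate 1 and 22.2% in replicate 2. These tiles were picked for a WT level of 0, so they could not fall. The share called among such tiles of the genome was not computed, so the count of 6 is a description only.

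In the flank, 12 of 30 tested tiles were called higher. The first 5 tiles, none of them called, differed by little, by 0.371 to 3.84 points, and they hold the vault RNA gene VTRNA1-3 (140105743 to 140105831, plus strand), a small RNA of the vault ribonucleoprotein particle. Around VTRNA1-3, with 500 bases on either side, the level was 3.55% and 3.80% in WT and 5.15% and 3.68% in ZNF274KO, so the groups overlapped. Over the whole flank the groups were separate, with ZNF274KO higher, in 26 of the 30 tested tiles, against 14.6% of all tiles. The last tested tile in which they overlapped is the last of those 5. The first 5 tiles were divided off at that tile, so the division was made on the outcome and is a description only. In the tile at 140118000 the levels were 36.8% and 38.5% in WT and 65.6% and 70.1% in ZNF274KO (adjusted p = 0.0109, edgeR), with replicate 2 of ZNF274KO as high as replicate 1. In the tile at 140140000 they were 0% and 0% (0 of 199 and 0 of 154 reads, which allows up to 0.85% over both) against 35.3% and 10.6% (adjusted p = 6.89e-05, edgeR). In the tile at 140162000, just before PCDHA1, they were 0.426% and 1.42% against 45.8% and 21.8% (adjusted p = 1.49e-06, edgeR). These 3 tiles differed in WT level and in how far the ZNF274KO libraries lay from each other.

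The other annotated genes of the flank differed in level. The long noncoding RNA ENSG00000292256 (140090800 to 140112866, plus strand) had 48.4% and 49.9% in WT and 53.0% and 57.3% in ZNF274KO over the 181 CpGs of its body inside the region. The processed pseudogene ENSG00000250515 (140111875 to 140112448, minus strand), a retrocopy of a transcript, had 70.1% and 77.8% against 93.0% and 87.3% over 8 CpGs. The processed pseudogene ENSG00000248106 (140143695 to 140144406, plus strand) had 44.4% and 40% against 64.0% and 66.7% over 2 CpGs. The antisense RNA ENSG00000279726 (140165283 to 140208134, minus strand) runs from the array into the flank and covers the PCDHA1 to PCDHA5 exons. Its level was 58.3% and 61.3% in WT and 72.1% and 63.3% in ZNF274KO. In these 4 genes the groups were separate, with ZNF274KO higher. The gene bodies were not part of the fit.

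The variable exons were methylated in both genotypes and did not pass the test in any gene. They are 2355 to 3027 bases long and hold 125 to 197 CpGs each. Summed over the 15 exons, the level was 69.8% and 72.0% in WT and 78.2% and 71.2% in ZNF274KO, so the groups overlapped and the difference of the means was 3.77 points (exact permutation p = 0.667). Of the 15 exons, 0 were called by edgeR, which called 0.122% of 77205 exons of all genes, so that a count of 0 is near that share. In simulated data the exon fit called 9% of changes of 2 in log2 odds, against 56% for the tile fit. A count of 0 exons called therefore does not show that the exons were unchanged. At an unadjusted p under 0.05 (edgeR) there were 3 of the 15, against 621 higher and 793 lower of 15043 first exons of all genes. Limma called 0 of the 15 and 0 of the 77205, so it could not set these exons apart. In 7 exons the groups were separate with ZNF274KO higher, and in 0 with ZNF274KO lower (8.07% and 10.5% of first exons of all genes). The median difference was 3.11 points, against 0 for the first exons of all genes, whose median level in WT was only 0.362%. Exon by exon, replicate 1 of ZNF274KO exceeded replicate 2 in 15 of 15. Replicate 1 exceeded both WT libraries in 13 exons and replicate 2 in 7.

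The exons nearest to either end of the array had the largest mean differences. For PCDHAC2 this rank rested on ZNF274KO replicate 1, without which its difference was 1.48 points, against 4.25 points for PCDHA4. PCDHA1, the first gene of the array, had 68.5% and 68.9% in WT and 83.5% and 75.1% in ZNF274KO (log2 odds ratio 0.83, adjusted p = 0.648, edgeR). PCDHAC2, the last, had 52.7% and 54.8% against 79.0% and 55.2% (log2 odds ratio 0.88, adjusted p = 0.887, edgeR), where ZNF274KO replicate 2 was 1.48 points above the WT mean. Without that replicate PCDHAC2 was called (adjusted p = 0.045, edgeR). PCDHA4 was next among the genes with separate groups, with 72.1% and 73.0% against 82.4% and 76.8%. In PCDHA11 the mean was lower in ZNF274KO, with 67.6% and 70.6% against 69.5% and 60.9%. PCDHAC1 had 47.6% and 57.5% in WT and 55.8% and 45.2% in ZNF274KO. The remaining 10 exons had WT means from 69.2% to 78.7% and differences from 0.975 to 5.54 points.

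Methylation was not even within these exons. Summed over PCDHA1 to PCDHA13 in bins of 250 bases, the mean WT level was 28.8% just before the start, 70.9% at 250 to 499 bases, 46.0% at 500 to 749 bases and 89.4% at 1500 to 1749 bases. The first 500 bases of these 13 exons had 61.7% and 64.0% in WT against 63.4% and 61.9% in ZNF274KO, a difference of -0.163 points. The bin at 1000 to 1249 bases had 47.1% and 45.9% in WT and 65.9% and 49.2% in ZNF274KO, the largest difference inside the exon for which the groups did not overlap (11.05 points). Past the exon, at 3000 to 3249 bases, WT had 3.01% and 0.806%, while ZNF274KO had 37.8% and 17.3%. The groups overlapped just before the start, in the first 250 bases, at 500 to 749 bases and, where the level was highest, in the bins from 1500 to 1999 bases, and they were separate with ZNF274KO higher in the other bins of the exon past 749 bases and up to 2499. At 250 to 499 bases they were separate with ZNF274KO lower (a difference of -1.35 points).

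**Figure D2:**
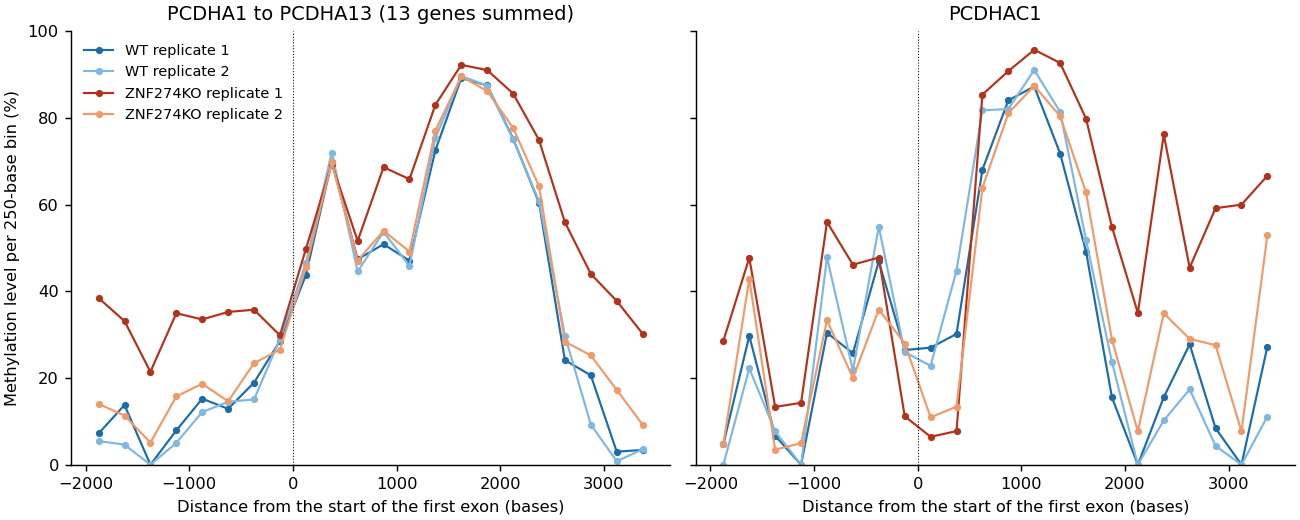
Methylation level (%) in 250-base bins against distance from the start of the first exon, for PCDHA1 to PCDHA13 summed (left) and PCDHAC1 (right), a line for each library. Left, the 4 lines run together over the first 500 bases and again at 1500 to 1999 bases, and lie further apart past the exon; right, the ZNF274KO lines lie below the WT lines over the first 500 bases of PCDHAC1.

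PCDHAC1 differed at its start in the other direction. Over the first 500 bases of its exon, which lie in its 5′ untranslated part (coding begins 594 bases in), the level was 28.7% and 32.8% in WT and 7.04% and 12% in ZNF274KO, a difference of -21.3 points over 49 CpGs. The groups did not overlap (exact permutation p = 0.333, the smallest possible). In PCDHAC2 the 250 bases before the start had 33.9% and 25% in WT and 20.5% and 13.8% in ZNF274KO over 13 CpGs, again separate with ZNF274KO lower. The first 250 bases of the PCDHAC2 exon overlapped, and at 250 to 499 bases ZNF274KO was higher, with 94.7% and 83.4% against 76.6% and 80.9% in WT. These stretches were singled out after the profile had been seen. The tested tile with the most negative difference of the locus, at 140304000, takes in the PCDHAC1 promoter and the first bases of its exon, with 30.2% and 33.6% in WT and 22.1% and 24.4% in ZNF274KO (adjusted p = 0.601, edgeR). The tile after it, at 140306000, had a mean lower by 4.40 points, with overlapping groups. The other 3 of the 5 lowest among the tested tiles were at 140220000 over the PCDHA8 start, 140246000 before PCDHA11 and 140200000 over the PCDHA5 start, with differences of -3.68, -2.68 and -2.45 points and adjusted p from 0.949 to 0.975 (edgeR).

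Promoters were taken as the 1000 bases before each start. Of the 15, 0 were called by edgeR, which called 0.0484% of 18583 promoters of all genes, so that a count of 0 is near that share. At an unadjusted p under 0.05 (edgeR) there were 3 of the 15, against 1090 of the 18583. By limma 0 of the 15 were called and 2 had an unadjusted p under 0.05, against 22 and 1133 of the 18583. Summed over the 15, the level was 23.4% and 23.7% in WT and 31.7% and 23.6% in ZNF274KO, so that in this sum replicate 2 lay between the WT libraries. The sum includes PCDHAC1, which was lower in ZNF274KO and holds 35 of the 194 CpGs. Among the 13 promoters of PCDHA1 to PCDHA13, replicate 1 exceeded both WT libraries in 11 and replicate 2 in 6. In 6 promoters the groups were separate with ZNF274KO higher and in 2, PCDHA4 and PCDHAC1, with ZNF274KO lower (15% and 18.9% of all promoters). The median difference was 7.50 points, against -0.118 points for all promoters. The WT means ran from 0.307% for PCDHA9 to 44.1% for PCDHA13. PCDHA12 had the largest difference, with 38.3% and 45.1% in WT and 66.4% and 53.7% in ZNF274KO (adjusted p = 0.78, edgeR). PCDHA2 had 14.1% and 14.1% against 34.5% and 17.9% (adjusted p = 0.833, edgeR). PCDHA9 had 0.613% and 0% against 17.4% and 0%, a difference carried by replicate 1 alone (adjusted p = 0.726, edgeR). PCDHA9 passed the test when either WT library was left out or the replicate number was a block (adjusted p from 0.0288 to 0.0374, edgeR). PCDHA4 had 8.86% and 11% in WT and 8.33% and 1.64% in ZNF274KO. With only 5 to 35 CpGs and 35 to 423 reads a library, single promoters could show only large changes.

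Summed over PCDHA1 to PCDHA13, the profile placed the promoter differences away from the start. In the 250 bases just before the start of PCDHA1 to PCDHA13 the level was 28.5% and 29.0% in WT and 29.8% and 26.5% in ZNF274KO. In the bin that begins 1000 bases before the start it was 15.2% and 12.2% against 33.5% and 18.7%. The CpG inside the shared word lay in the part without a difference: summed over the 10 genes that hold the word, 31 of 127 and 20 of 91 reads were methylated in WT, and 24 of 104 and 20 of 105 in ZNF274KO. These are 24.4% and 22.0% against 23.1% and 19%, a difference of -2.13 points with overlapping groups. Between genes the same CpG varied widely in WT. In PCDHA4 it had 0 methylated reads of 9 and 0 of 19, in PCDHA7 0 of 13 and 0 of 6, and in PCDHA8 0 of 18 and 0 of 9, whereas PCDHA6 had 8 of 14 and 7 of 11, and PCDHA12 had 9 of 12 and 4 of 10. In ZNF274KO the order was alike, with 9 of 11 and 9 of 14 for PCDHA6, 7 of 10 and 6 of 8 for PCDHA12, and at most 1 methylated read in either library for PCDHA4, PCDHA7 and PCDHA8. For PCDHA5 the counts were 10 of 14 and 3 of 6 in WT and 4 of 12 and 1 of 4 in ZNF274KO. For PCDHA2 they were 3 of 10 and 1 of 5 against 0 of 6 and 1 of 16. In both genes the shares were lower in ZNF274KO with separate groups, and in PCDHA6 they were higher with separate groups. The shares of these genes rest on 4 to 16 reads a library and were not tested.

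The sequence between the exons was then described on its own. Outside the variable exons and promoters, the array had 20.5% and 17.5% in WT and 40.8% and 25.1% in ZNF274KO over 886 CpGs, a difference of 13.9 points. Without the pseudogene PCDHA14, described below, the levels were 12.9% and 10.1% against 35.5% and 18.1% over 763 CpGs, a difference of 15.3 points. Each of the 14 gaps from the end of a variable exon to 1000 bases before the next start was higher in ZNF274KO with separate groups. The differences ran from 6.69 to 40.5 points (median 13.4). Of all 2 kb tiles of the genome 14.6% were separate in this way, and the share for gaps like these was not computed. In the gap from PCDHA8 to PCDHA9, replicate 2 of ZNF274KO (3.69%) was close to the higher WT library (3.11%). The gap from PCDHA2 to PCDHA3 had the largest difference, with 14.2% and 18.3% in WT and 68.5% and 45.0% in ZNF274KO. The tile at 140178000, which holds the end of this gap and the first bases of the PCDHA3 promoter, had 0% and 0% (0 of 102 and 0 of 75 reads) against 44.2% and 21.7% (adjusted p = 0.000226, edgeR). The gap from PCDHA1 to PCDHA2 had 5.79% and 2.12% against 46.1% and 17.6%, and 3 tiles in a row from the end of the PCDHA1 exon were called. The gap from PCDHA10 to PCDHA11 had the smallest difference, with 51.9% and 50.03% against 62.4% and 52.9%. It holds the pseudogene PCDHA14 (140240809 to 140243106), a decayed variable exon, which had 64.7% and 62.1% in WT and 73.3% and 64.5% in ZNF274KO. The pseudogene therefore resembled the variable exons, not the gaps, in WT level and in difference. Within each library the variable exons were higher than the sequence between them, PCDHA14 included, by 49.3 and 54.5 points in WT and by 37.4 and 46.1 points in ZNF274KO. This contrast did not overlap between groups (exact permutation p = 0.333, the smallest possible).

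**Figure D3:**
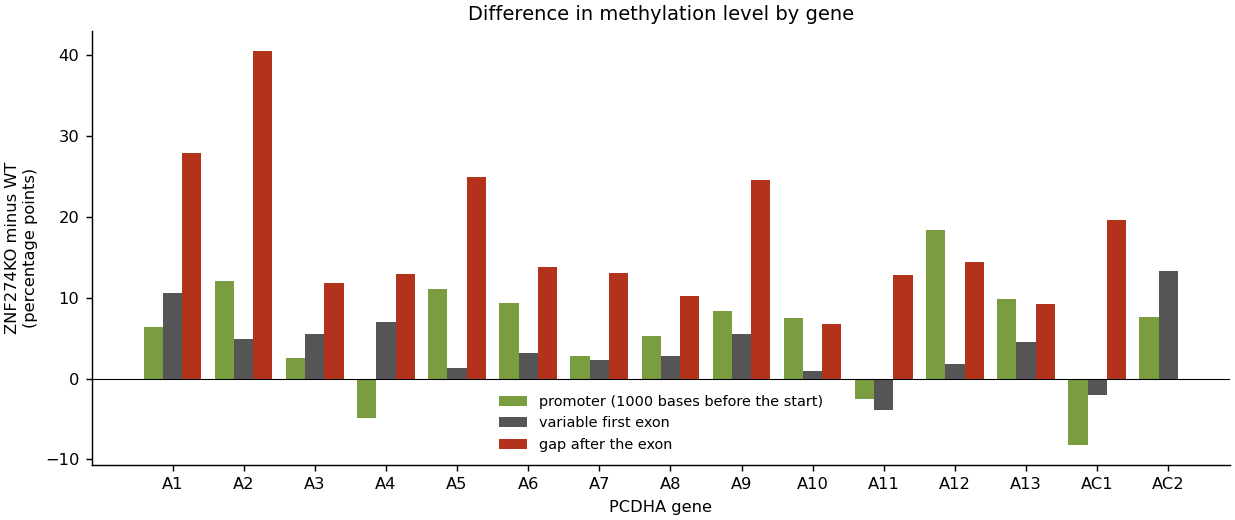
Difference in methylation level (ZNF274KO minus WT, percentage points) for the promoter, the variable first exon and the gap after the exon of each alpha gene, as bars from 0; the last gene has no gap bar. The gap bar is the tallest of its gene except for PCDHA10, PCDHA12 and PCDHA13, and the gap bars run from 6.69 to 40.5 points, while the exon bars run from -3.90 to 13.3 points.

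The long gap between PCDHA13 and PCDHAC1 is described before and after its first called tile, a division made on the calls, so that the counts and medians of the parts are a description only. In the 12 tested tiles of that part, from 140266000 to 140293999, 0 were called by edgeR (3 at an unadjusted p under 0.05) or by limma, and the median difference was 3.43 points. There the WT median was 2.31% and the ZNF274KO median 9.58%, with 1 tile, at 140274000, far higher (43.5% and 41.3% in WT and 50.7% and 43.9% in ZNF274KO). In the 4 tested tiles from 140294000 to 140303999, 4 of 4 were called, with a median difference of 29.7 points. The tile at 140300000 had 11.9% and 3.60% in WT and 67.0% and 25.4% in ZNF274KO (adjusted p = 0.00812, edgeR). The tile at 140308000, which takes in the end of the PCDHAC1 exon and the intron behind it, had 13.2% and 7.10% against 63.5% and 30.7% (adjusted p = 0.000767, edgeR). The exon as a whole was not called.

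The constant stretch held the longest run of called tiles. From 140356000 to 140379999, 12 tiles in a row were called higher, with differences from 18.0 to 43.5 points (median 32.3) and WT means from 0.786% to 21.7%. The run begins in the intron before the first constant exon and spans the first and second constant exons, so that it ends inside the last intron. The tile with the largest rise of the locus, at 140378000, closes it, with 11% and 4.55% in WT and 69.0% and 33.6% in ZNF274KO (log2 odds ratio 3.56, adjusted p = 0.00132, edgeR). The tile at 140364000 had 27.7% and 15.8% against 70.7% and 48.0% (adjusted p = 0.00103, edgeR). The tile at 140348000, which takes in the end of the PCDHAC2 exon and the intron behind it, had the next largest rise after 140378000, with 6.50% and 4.40% against 68.5% and 26.8% (adjusted p = 0.00201, edgeR). Of these 3 tiles, 140364000 was also called without ZNF274KO replicate 1, and the others were not.

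The constant exons themselves are small in CpGs. The first (140358534 to 140358592, 2 CpGs) had 0% and 0% in WT and 39.5% and 14.3% in ZNF274KO. The second (140362060 to 140362148, 1 CpG) had 0% and 0% against 9.09% and 8.33%. Its levels rest on only 15 and 7 reads in WT and 11 and 12 in ZNF274KO. Both exons had too few CpGs to be tested. The third (140389212 to 140391932, 29 CpGs), which includes the shared 3′ untranslated part, had 2.83% and 5.93% against 26.9% and 5.88%, so the groups overlapped and it was not called (adjusted p = 0.648, edgeR). It was called with the replicate number as a block (adjusted p = 0.0102, edgeR) and without ZNF274KO replicate 2 (adjusted p = 0.0392, edgeR). The introns around them had 12.1% and 10.3% in WT and 49.0% and 25% in ZNF274KO over 302 CpGs.

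**Figure D4:**
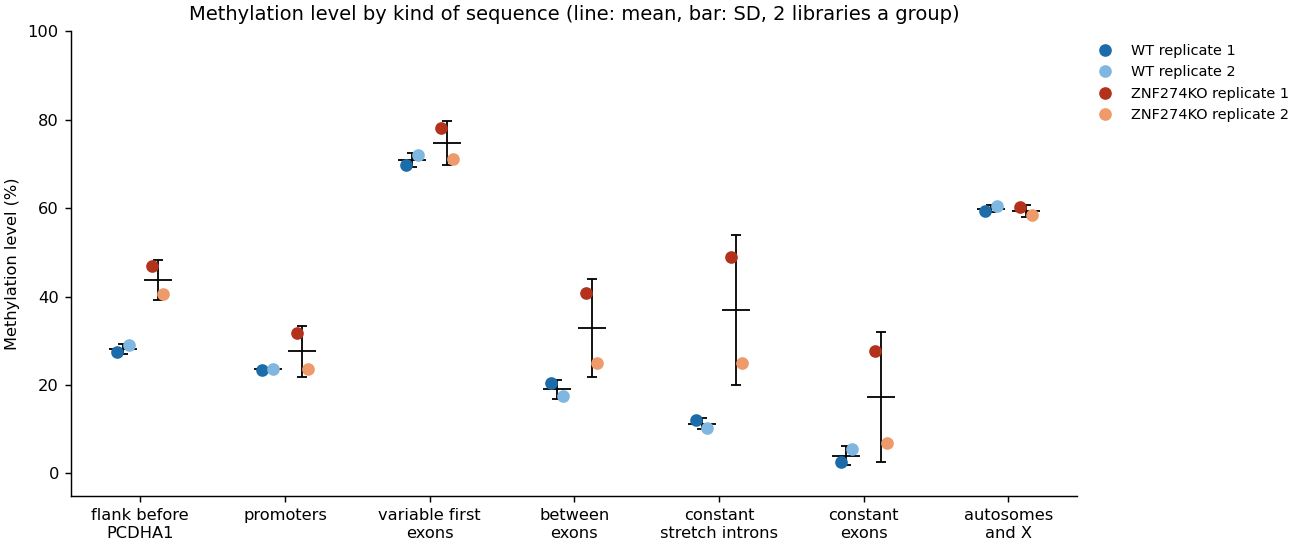
Methylation level (%) of each kind of sequence in the locus and of the autosomes and X, with a point for each library, a line for the group mean and a bar for the SD (n = 2). ZNF274KO points lie above WT points in the flank, between exons and in the introns of the constant stretch, overlap them over promoters and variable exons, and overlap them for the autosomes and X.

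The 2 knockout libraries did not exceed WT in proportion. Over the mean of WT, replicate 1 was higher by 18.8 points and replicate 2 by 12.5 points in the flank, by 21.8 and 6.04 points between the variable exons, and by 37.8 and 13.7 points in the introns of the constant stretch. Over the variable exons summed these differences were 7.26 and 0.269 points and over the 15 promoters summed 8.15 and 0.0427 points. In both sums the difference rested on replicate 1. Both strands showed the difference: between the variable exons the levels were 21.1% and 19.8% in WT and 39.9% and 25.6% in ZNF274KO on the plus strand, and 20% and 15.1% against 41.7% and 24.5% on the minus strand.

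The alpha cluster was also set against the beta and gamma clusters that follow it. The difference between genotypes was smaller in alpha than in beta: alpha minus beta was 9.98 and 11.6 points in WT and 2.23 and 4.01 points in ZNF274KO. The contrast differed by -7.69 points between genotypes, with groups apart (exact permutation p = 0.333, the smallest possible), and alpha minus gamma differed by -1.10 points with overlapping groups (exact permutation p = 1), a value that turned to 1.01 without ZNF274KO replicate 2. Alpha first exons exceeded beta first exons by 17.8 and 18.8 points in WT and by 5.57 and 9.54 points in ZNF274KO, a difference between genotypes of -10.7 points with groups apart. Outside first exons alpha minus beta differed by -2.64 points, also with groups apart. Against gamma, the first exons differed by -4.17 points with groups apart and the rest by 4.26 points with overlapping groups. Limma called 0 exons anywhere. Of 16 PCDHB first exons, 0 were called by edgeR (16 at an unadjusted p under 0.05), with a median difference of 14.9 points from a WT median of 52.8%. Of 22 PCDHG first exons, 0 were called (10 at an unadjusted p under 0.05), with a median difference of 8.11 points. Of the first exons of all genes, 621 were higher and 793 lower at an unadjusted p under 0.05, of 15043 tested. Of the promoters, 1 of 16 PCDHB and 0 of 21 tested PCDHG promoters were called by edgeR (10 and 6 at an unadjusted p under 0.05). Of all 18583 promoters, 9 were called and 1090 had an unadjusted p under 0.05, so that 0 of 21 is near the share called. Outside first exons the difference was 14.9 points in alpha (18.8% and 16.7% in WT, 40.8% and 24.5% in ZNF274KO), 17.5 points in beta (27.5% and 25.9% against 51.8% and 36.6%) and 10.6 points in gamma (48.8% and 50.2% against 62.5% and 57.8%). Replicate 2 of ZNF274KO alone exceeded the WT mean by less in alpha than in gamma, so the order of alpha and gamma rests on replicate 1. The gamma genes share exons, and the beta genes have no constant exons, so these sections do not hold the same kinds of sequence.

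**Figure D5:**
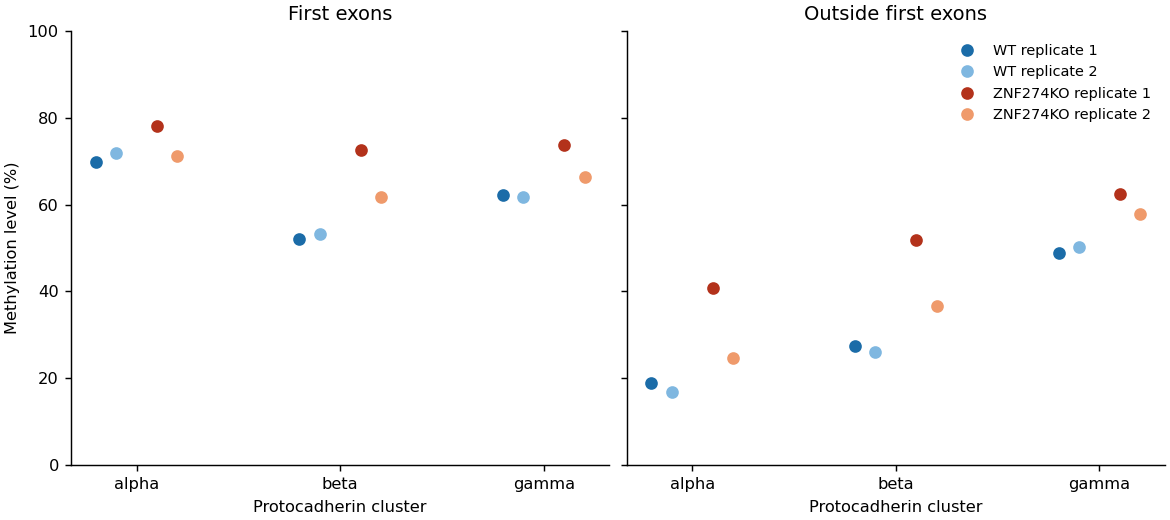
Methylation level (%) of the alpha, beta and gamma protocadherin clusters over first exons (left) and over the rest of each cluster (right), with a point for each library. Left, the alpha points lie between 69.8% and 78.2%, with ZNF274KO replicate 2 between the WT points and replicate 1 above them. For beta and gamma the groups do not overlap. Right, the ZNF274KO points are the higher ones in each cluster.

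The promoters of 15 genes for proteins that organise or modify this locus did not pass the test. They are CTCF, the cohesin subunits and regulators SMC1A, SMC3, WAPL and NIPBL, the chromatin proteins SMCHD1, SETDB1, TRIM28 and WIZ, the DNA methyltransferases DNMT1, DNMT3A and DNMT3B, and the demethylating enzymes TET1, TET2 and TET3. None of the 15 reached an unadjusted p under 0.05 (edgeR), which 1090 of all 18583 promoters did, so that 0 of 15 is near the share over all promoters. Their differences ran from -7.73 to 4.92 points.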

How the data were processed

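EM-seq was run on genomic DNA of HEK293T cells, with 2 WT and 2 ZNF274KO libraries. The authors aligned the reads to hg19, with the ribosomal DNA repeat as an added chromosome, with HISAT2 inside the Msuite2 pipeline, and the deposited values are whole-number counts of methylated and unmethylated calls per CpG and strand for each library. Filters on reads are not given in the sources used here. From these counts the methylation level was computed as methylated reads over all reads, with both strands added, and summed over 2 kb tiles, promoters of 1000 bases, exons and sections of the locus. Starts and exons came from GENCODE annotation on the same build, and 0 of the CpG positions in the files fell off a CG of the GRCh37 reference. Regions that held 5 CpGs and reached 20 reads in each of the 4 libraries were fitted over the whole genome with edgeR 4.0.16 in R 4.3.3 (quasi-likelihood test, common dispersion estimated on 20000 regions, a coefficient for each library, a methylation term and a genotype term), and p-values were adjusted by Benjamini-Hochberg over all regions of a kind at 0.05. The script was tested on simulated data. Levels of single sections were compared by a 2-sided exact permutation test over libraries. Limma 3.58.1 on log2 odds with 1 read added, other read minimums, tile lengths and promoter lengths, a replicate block, centring and leaving out each library were tried. Named were all alpha genes, all annotated genes of the flank, and the 5 tiles with the largest rise and the 5 with the largest fall. A further gene of the list of regulators is not reported here. The members and lists were chosen with earlier results of these data known. Median depth was 9 or 10 reads a CpG at the locus, so values rest on sums over CpGs.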

Additional observations from a re-analysis of the deposited data

How the results depend on the processing

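The count of 42 tiles called higher was 8 with limma, 8 with tiles of 10 kb (of 30 tested), and from 13 to 61 when 1 library was left out, the lowest without ZNF274KO replicate 1 and the highest without ZNF274KO replicate 2. It was 50 without WT replicate 1 and 52 without WT replicate 2. Of the 42 tiles, 13 were called without ZNF274KO replicate 1 and 41 without ZNF274KO replicate 2. With at least 10 or 50 reads the count was 42, with centring 47, with tiles of 1 kb 56 of 205, and with the newer quasi-likelihood fit of edgeR, added after seeing the data, 34. No tile was called lower under these settings by edgeR or limma, with at most 2 lower at an unadjusted p under 0.05. All 5 tiles of the largest rise lost the call with limma (adjusted p from 0.112 to 0.317), and 3 of them without ZNF274KO replicate 1 (edgeR adjusted p from 0.0639 to 0.465). The count of promoters called higher went from 0 to 1 (PCDHA9) without either WT library, and ranged from 0 to 1 over the 4 leave-outs. The count of exons called higher went from 0 to 2 (PCDHAC2 and the last constant exon) without ZNF274KO replicate 2, and ranged from 0 to 2. With 1 library left in a group, that library was taken to vary like the pair of the other group. The replicate numbers were not shown to pair libraries (r = -0.0707 between the replicate differences of WT and ZNF274KO over 1241460 tiles). A replicate block in the fit gave 53 tiles, 1 promoter (PCDHA9) and 1 exon (the last constant exon) called higher, the 42 tiles among them. Over the genome the block moved the exon calls from 94 to 458 and the promoter calls from 9 to 37, and limma made 0 and 22. Alpha minus gamma ranged from -3.21 to 1.01 when 1 library was left out, with the sign reversed without ZNF274KO replicate 2. The locus difference of 8.89 points ranged from 3.72 to 14.1, that of the flank from 12.5 to 18.8, that of the array from 1.46 to 11.02, that of the constant stretch from 13.04 to 36.1 that between variable exons from 6.04 to 21.8, that of the variable exons from 0.269 to 7.26 and that of the promoters from 0.0427 to 8.15, each lowest without ZNF274KO replicate 1. The cause was not tested. Depth limits the small regions, such as constant exons of 1 or 2 CpGs, and 71.8% of the CpGs at the locus lie in a converted sequence of 50 bases that occurs once in the genome. By section this share was lowest in the first 500 bases of the PCDHA1 to PCDHA13 exons (55.0%). It was 62.0% in the flank and 100% in the constant exons.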
